A study of Mus musculus with 8 samples.

Results

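The genes described here are 10 inflammatory genes of mouse fibroblasts: the chemokine genes Ccl2, Ccl7, Cxcl1, Cxcl5 and Cxcl12, the cytokine genes Csf1, Il6 and Lif, and the NF-kB feedback inhibitors Nfkbia and Tnfaip3. They were chosen by symbol, and all 10 were found among 78298 transcript rows, each symbol on 1 row. Polyadenylated RNA came from NIH3T3, an embryonic fibroblast line of the mouse labelled WT, grown in medium with serum and without the immune cells of an animal. In 4 libraries the cells had received Mic-628 for 1 day, and in 4 they had received vehicle for 1 day. The dose and the vehicle are not given in the labels. The series title describes a compound that induces Period1 and advances the circadian clock, and the comparison here asks how these inflammatory transcripts differed after treatment. Each library carries a batch number from 1 to 4, with 1 Mic-628 and 1 vehicle library per number. The labels leave unsaid whether replicate libraries are separate cultures, and the p-values then reflect library-to-library spread that could be technical.

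NF-kB is a family of dimeric transcription factors that IkB proteins hold in the cytoplasm until cytokine or Toll-like receptors activate the IKK kinase complex. Released dimers enter the nucleus and switch on chemokines, cytokines and also their own inhibitors, so the pathway shuts itself down. Fibroblasts use this pathway to attract and sustain monocytes, macrophages and neutrophils at sites of injury. Many of these transcripts are short-lived because their 3′ untranslated regions hold AU-rich elements built from ATTTA.

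Promoter sequence was available for 7 of the 10 genes, as RefSeq windows on build GRCm38.p6. None was available for Ccl2, Ccl7 and Cxcl5, the genes that fell most with Mic-628. In the 250 bases before the annotated start, 5 of the 7 genes held a match to the NF-kB consensus on either strand. By window, 5 of their 8 held a match, against 3.90% of all 32851 windows of that length. The genes with a match were Csf1, Cxcl1, Il6, Nfkbia and Tnfaip3, and those without were Cxcl12 and Lif. Windows of Csf1 (chr3:107760470-107760719, minus strand), Tnfaip3 (chr10:19015411-19015660, minus strand) and Nfkbia (chr12:55492648-55492897, minus strand) are shown because Csf1 and Tnfaip3 were lower with Mic-628 and Nfkbia was not called. Capitals mark the match, read along the strand of the gene, and a match on the opposite strand therefore appears as its reverse complement.
Csf1: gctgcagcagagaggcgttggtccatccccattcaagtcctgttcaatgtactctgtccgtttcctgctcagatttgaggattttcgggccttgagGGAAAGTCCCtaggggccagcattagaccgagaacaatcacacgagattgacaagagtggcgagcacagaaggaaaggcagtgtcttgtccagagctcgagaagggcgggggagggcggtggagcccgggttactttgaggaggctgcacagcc
Tnfaip3: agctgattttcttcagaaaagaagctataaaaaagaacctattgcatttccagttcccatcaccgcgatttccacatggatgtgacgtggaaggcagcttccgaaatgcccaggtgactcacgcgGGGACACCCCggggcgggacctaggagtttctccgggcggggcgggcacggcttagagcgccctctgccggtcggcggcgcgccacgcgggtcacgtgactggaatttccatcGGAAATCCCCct
Nfkbia: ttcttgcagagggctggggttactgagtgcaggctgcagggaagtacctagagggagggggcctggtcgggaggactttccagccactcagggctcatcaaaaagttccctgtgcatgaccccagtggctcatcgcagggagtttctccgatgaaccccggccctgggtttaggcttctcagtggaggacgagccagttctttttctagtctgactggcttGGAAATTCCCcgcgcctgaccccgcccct
The match lies at -154 to -145 from the start in Csf1, at -125 to -116 and -12 to -3 in Tnfaip3, and at -29 to -20 in Nfkbia. Tnfaip3 has a further window at another start without a match. In Il6 the match is GGGATTTTCC at -44 to -35, and in Cxcl1 overlapping matches on both strands cover -71 to -61. The window of Tnfaip3 also holds the AP-1 motif TGANTCA (6.75% of all windows, either strand) at -136 to -130 and the E-box CACGTG (6.02%) at -33 to -28. The AP-1 motif is also present in the windows of Il6 and Lif. None of the motifs overlaps another kind in these windows, and a match is a description of the letters, not evidence of binding.

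With Mic-628, 5 of the 10 genes were lower and none was higher. The chemokine transcripts Cxcl5, Ccl2 and Ccl7 fell most, to 0.575, 0.651 and 0.667 of their vehicle level. Tnfaip3 fell to 0.832 and Csf1 to 0.874 of it. Il6, Lif, Nfkbia and Cxcl12 were tested and not called, and Cxcl1 had too few counts to be tested. The test was edgeR's quasi-likelihood test over 17128 rows with Benjamini-Hochberg adjustment, and a gene with an adjusted p under 0.05 is called. Of all tested rows 4.37% were called, 2.25% lower and 2.13% higher, and the median log2 fold change was -0.004. Among the 9 tested genes the median was -0.19. For the same 5 genes the FPKM of the groups did not overlap, which held for 5.02% of all tested rows toward lower and 5.68% toward higher values. All 9 passed the low-count filter in all 4 libraries of each group, so none entered the test through 1 group alone. The 10 genes were chosen with earlier results of these data known, so their share is a description. In bulk RNA, fewer cells making a transcript and less of it per cell cannot be told apart.

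**Figure D1:**
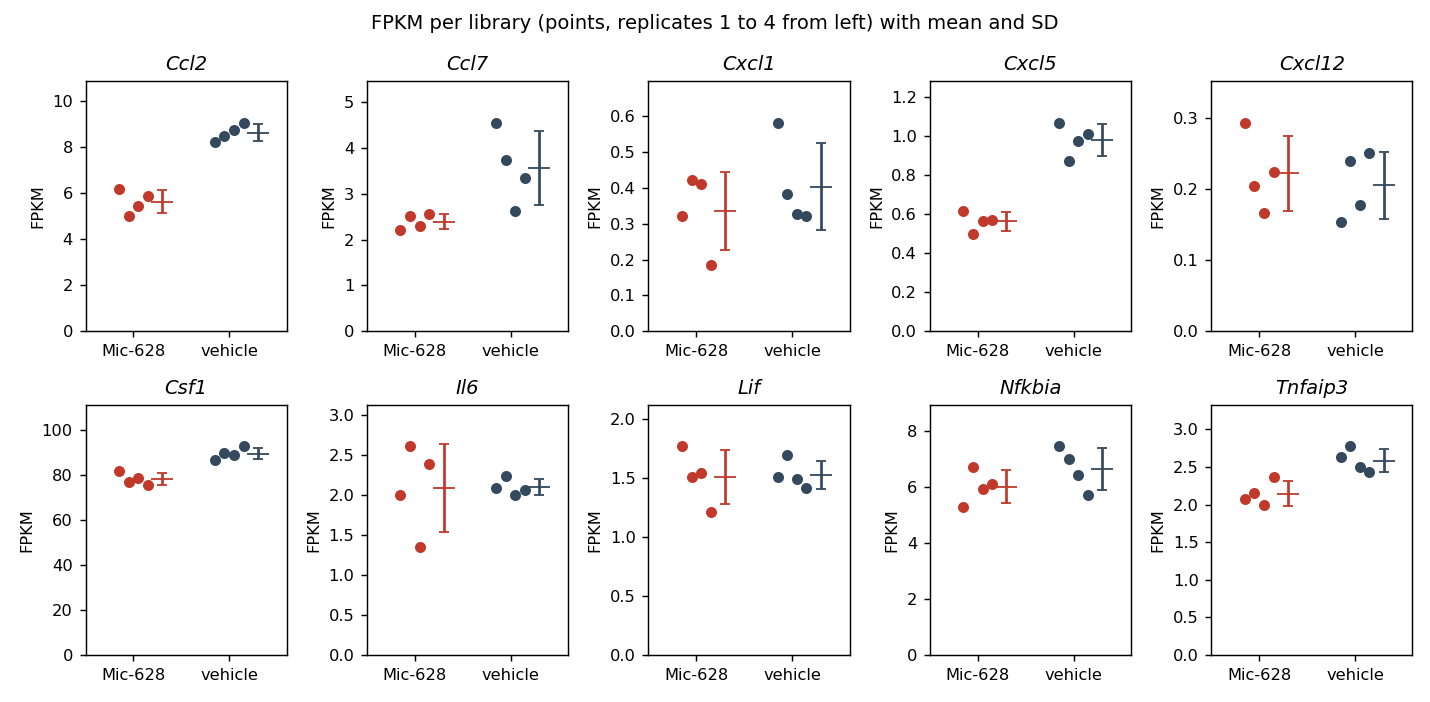
FPKM (fragments per kilobase of exon, scaled to library size; y axis from 0) of each gene in the 4 Mic-628 libraries (red) and the 4 vehicle libraries (dark slate), replicates 1 to 4 from left, with mean and SD. The groups do not overlap for Ccl2, Ccl7, Cxcl5, Csf1 and Tnfaip3, all lower with Mic-628, and overlap for the other 5 genes.

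Ccl2 encodes the monocyte attractant MCP-1, a ligand of the receptor CCR2. Its row (ENSMUST00000000193.6, mm39 chr11:81926397-81928279, plus strand) had 6.18, 5.01, 5.45 and 5.87 FPKM in Mic-628 replicates 1 to 4, against 8.20, 8.46, 8.75 and 9.05 FPKM in vehicle replicates 1 to 4. Every Mic-628 library was below every vehicle library. The means were 5.63 ± 0.507 FPKM with Mic-628 and 8.61 ± 0.367 FPKM with vehicle (SD, n = 4 each). The difference on the log2 scale was -0.62, with a 95% interval of -0.81 to -0.43 (SE 0.094; edgeR adjusted p = 0.00012). The values rest on 98 to 108.5 counts per Mic-628 library and 144.5 to 168.5 counts per vehicle library. Ccl2 was called lower under all 22 alternative settings, with log2 fold changes between -0.69 and -0.54.

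Ccl7 encodes MCP-3, another CCR2 ligand, and its row begins 8259 bases after the end of Ccl2 on the same strand (ENSMUST00000021011.3, mm39 chr11:81936538-81938351). It had 2.21, 2.51, 2.30 and 2.55 FPKM with Mic-628, against 4.55, 3.73, 2.62 and 3.35 FPKM with vehicle. The groups did not overlap, but vehicle replicate 3 lay only just above the highest Mic-628 library. Relative to vehicle it changed by -0.58 on the log2 scale (SE 0.16; edgeR adjusted p = 0.0338), on 34.5 to 50 counts per Mic-628 library and 47 to 79 counts per vehicle library. This call was fragile. It was lost without Mic-628 replicate 1, 2, 3 or 4 (edgeR adjusted p 0.0932, 0.0617, 0.106 and 0.0505), without vehicle replicate 1 or 2 (0.113 and 0.105), and without batch 1, 2 or 4 (0.193, 0.155 and 0.0512). The adjusted p was 0.566 in DESeq2 when batch numbers entered as a block.

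The log2 ratio of Ccl2 to Ccl7, on the CPM scale, was 1.26 ± 0.203 with Mic-628 and 1.31 ± 0.379 with vehicle (SD, n = 4 each). The difference of -0.05 was smaller than either SD (exact permutation p = 0.83, two-sided; 0.914 after Benjamini-Hochberg adjustment over the 5 ratios compared). Without Mic-628 replicate 2 or vehicle replicate 3 the difference was 0.03 and 0.10, so its sign is not fixed. The other genes of this chemokine cluster were barely detected. Ccl8, another monocyte attractant, averaged 0.260 ± 0.0872 FPKM with Mic-628 and 0.327 ± 0.192 FPKM with vehicle (SD, n = 4 each), and was below the filter. Ccl11, Ccl12 and Ccl1 had no count in any library, which allows up to 3 counts per library, or 0.130 to 0.166 CPM, for counting error only.

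Cxcl5 encodes a neutrophil attractant that acts through the receptor CXCR2. Its row (ENSMUST00000031318.6, mm39 chr5:90907237-90909483, plus strand) had 0.617, 0.496, 0.564 and 0.571 FPKM with Mic-628, against 1.07, 0.872, 0.975 and 1.01 FPKM with vehicle. The groups were well apart, although a library held only 19 to 20.5 counts with Mic-628 and 32 to 36.5 counts with vehicle. The change of -0.80 on the log2 scale (95% interval -1.18 to -0.42, SE 0.18; edgeR adjusted p = 0.0108) ranked 17th by size among the 385 called lower. Ccl2 ranked 36th and Ccl7 40th, and 39 rows fell by at least 1.5-fold. Leaving out any single library kept the Cxcl5 call (edgeR adjusted p 0.0189 to 0.0403), but it was lost with batch 2 left out (0.0633) and with batch 3 left out (0.0779). A row on the opposite strand that overlaps Cxcl5 summed to 9 counts with Mic-628 and 11.5 counts with vehicle, against 79.5 and 139.5 counts for Cxcl5.

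Cxcl1, another CXCR2 ligand, begins 129617 bases after the end of Cxcl5 (ENSMUST00000031327.9, mm39 chr5:91039100-91040974, plus strand). It had 0.323, 0.422, 0.411 and 0.185 FPKM with Mic-628, against 0.582, 0.384, 0.328 and 0.321 FPKM with vehicle. The groups overlapped in part: vehicle replicate 1 was above every Mic-628 library and Mic-628 replicate 4 below every vehicle library, on 4 to 10 counts per Mic-628 library and 7 to 12 counts per vehicle library. With no low-count filter its log2 fold change was -0.23 (edgeR adjusted p = 0.843). The log2 ratio of Cxcl5 to Cxcl1 was 1.46 ± 0.553 with Mic-628 and 1.99 ± 0.331 with vehicle (SD, n = 4 each), a difference of -0.53 that did not pass (exact permutation p = 0.171; adjusted p = 0.333 over the 5 ratios). The other genes of this cluster were at or near zero. Ppbp averaged 0.148 FPKM with Mic-628 and 0.277 FPKM with vehicle, and Pf4, Cxcl3, Cxcl15 and Cxcl2 had no count in any library.

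Cxcl12 encodes the constitutive chemokine SDF-1, which acts through CXCR4 and is scavenged by ACKR3. Its row (ENSMUST00000112871.8, mm39 chr6:117145535-117158327, plus strand) was the lowest of the 10, with 0.293, 0.204, 0.166 and 0.224 FPKM with Mic-628 against 0.154, 0.239, 0.177 and 0.250 FPKM with vehicle. The groups overlapped, and the difference on the log2 scale was 0.10 (95% interval -0.44 to 0.64; SE 0.26; edgeR adjusted p = 0.900). Its ratio to Ccl2 was higher with Mic-628 in 4 of 4 batch pairs. On the log2 scale that ratio was -2.70 ± 0.256 with Mic-628 and -3.44 ± 0.340 with vehicle (SD, n = 4 each). The difference of 0.74 had an exact permutation p of 0.0286, the smallest that 4 libraries against 4 allow, but an adjusted p of 0.143 over the 5 ratios. A ratio that stands alone at that smallest p adjusts to 0.143, so this one could not have passed the correction at any size. It missed the unadjusted threshold without Mic-628 replicate 1, 2 or 4 or vehicle replicate 1 or 3 (differences of 0.65, 0.72, 0.75, 0.63 and 0.66; exact permutation p = 0.0571 in each).

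Csf1 encodes the growth factor that keeps macrophages alive and is by far the most abundant of the 10 transcripts. Its row (ENSMUST00000014743.10, mm39 chr3:107648364-107667785, minus strand) had 81.9, 76.8, 78.8 and 75.5 FPKM with Mic-628, against 86.6, 89.9, 88.9 and 92.7 FPKM with vehicle. The shift was small and even, with no overlap of the groups. On the log2 scale it fell by 0.19, with a 95% interval of -0.26 to -0.13 (SE 0.033; edgeR adjusted p = 0.000558). With 6689 to 8002 counts per Mic-628 library, Csf1 was measured more precisely than any other of these genes. It was called in 21 of 22 alternatives, the exception being limma-trend on log2(FPKM + 1) over all rows (adjusted p = 0.0537). Leaving out any library kept the call (edgeR adjusted p at most 0.00502). Csf1 ranked 217th by size among the called lower.

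Il6 encodes interleukin-6, which signals through IL6RA and the shared receptor gp130. Its row (ENSMUST00000026845.12, mm39 chr5:30218112-30224973, plus strand) had 2.00, 2.61, 1.35 and 2.39 FPKM with Mic-628, against 2.09, 2.25, 2.00 and 2.07 FPKM with vehicle. Both the lowest and the highest values were in Mic-628 libraries, with SDs of 0.551 FPKM with Mic-628 and 0.104 FPKM with vehicle (n = 4 each). The log2 fold change was -0.01 (edgeR adjusted p = 0.991; 95% interval -0.34 to 0.33), and without Mic-628 replicate 3 it was 0.15. The interval does not exclude changes of that size in either direction.

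Lif encodes leukemia inhibitory factor, which signals through LIFR and gp130. Its row (ENSMUST00000066283.12, mm39 chr11:4207557-4222514, plus strand) had 1.77, 1.51, 1.55 and 1.21 FPKM with Mic-628, against 1.51, 1.70, 1.49 and 1.42 FPKM with vehicle. The groups overlapped, with a log2 fold change of -0.02 (edgeR adjusted p = 0.948; 95% interval -0.24 to 0.19). The log2 ratio of Lif to Il6 was 1.38 ± 0.532 with Mic-628 and 1.35 ± 0.0628 with vehicle (SD, n = 4 each), a difference of 0.03 (exact permutation p = 0.914, also after adjustment over the 5 ratios). Without Mic-628 replicate 1 or 3 the difference was -0.06 and -0.17.

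Tnfaip3 encodes A20, a ubiquitin-editing enzyme that ends signalling from the TNF receptor and Toll-like receptors. Its row (ENSMUST00000019997.11, mm39 chr10:18876658-18891158, minus strand) had 2.08, 2.15, 1.99 and 2.37 FPKM with Mic-628, against 2.63, 2.77, 2.50 and 2.43 FPKM with vehicle. The groups did not overlap, with Mic-628 replicate 4 close to vehicle replicate 4. On the log2 scale it fell by 0.26 (95% interval -0.42 to -0.11; SE 0.074; edgeR adjusted p = 0.0405). This call was close to the threshold: it was lost with the batch number as a block (edgeR adjusted p = 0.0637), in DESeq2 (0.113), and without Mic-628 replicate 1, 2 or 3 or vehicle replicate 1, 2 or 3 (edgeR adjusted p 0.0966, 0.0850, 0.156, 0.0692, 0.167 and 0.0632). It was also lost without batch 1, 2 or 3 (0.113, 0.259 and 0.203).

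Nfkbia encodes IkB alpha, which binds NF-kB dimers and returns them to the cytoplasm. Its row (ENSMUST00000021413.9, mm39 chr12:55536195-55539432, minus strand) had 5.27, 6.71, 5.91 and 6.11 FPKM with Mic-628, against 7.43, 6.99, 6.41 and 5.71 FPKM with vehicle. The groups overlapped, and 3 of 4 batch pairs were lower with Mic-628. The difference on the log2 scale was -0.13 (95% interval -0.31 to 0.04; SE 0.086; edgeR adjusted p = 0.450), and it was called under none of the 22 alternatives. Its size rested on single libraries: it was -0.084 without Mic-628 replicate 1, -0.076 without vehicle replicate 1, -0.027 without batch 1 and -0.21 without batch 4. The log2 ratio of Tnfaip3 to Nfkbia was 0.01 ± 0.151 with Mic-628 and 0.14 ± 0.108 with vehicle (SD, n = 4 each), a difference of -0.12 that did not pass (exact permutation p = 0.2; adjusted p = 0.333 over the 5 ratios). Without Mic-628 replicate 2 that difference was -0.069. Rows on the opposite strand overlap Nfkbia, Csf1 and Il6, at 73.5, 55 and 16.5 summed counts with Mic-628 and 77.5, 53 and 21.5 with vehicle.

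**Figure D2:**
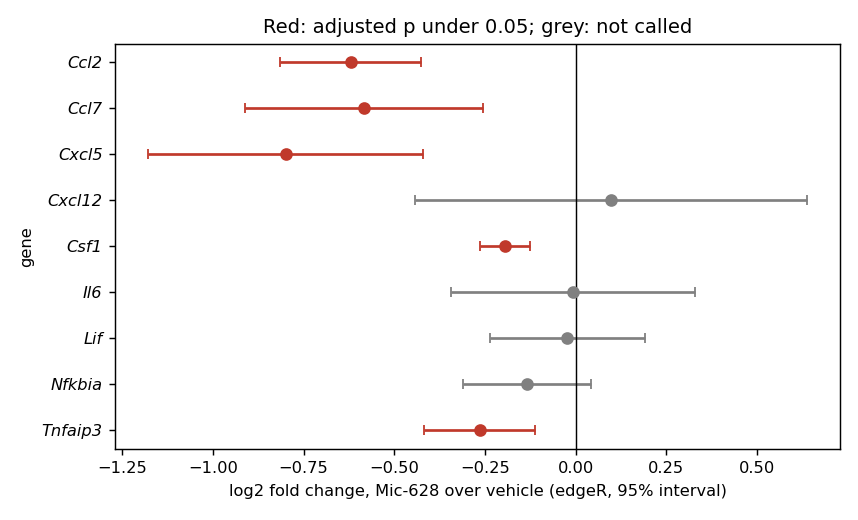
Log2 fold change, Mic-628 over vehicle (x axis), of the 9 tested genes with 95% intervals from edgeR; red, called lower, and grey, not called. The intervals of Ccl2, Ccl7, Cxcl5, Csf1 and Tnfaip3 lie below 0, and those of Cxcl12, Il6, Lif and Nfkbia include it.

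The Mic-628 library with the lowest value differed between genes. Some values rest on few counts, 19 to 20.5 per Mic-628 library for Cxcl5 and 4 to 10 for Cxcl1. Whether the order of libraries exceeds counting noise was not tested. Relative to its vehicle mean, on the log2 CPM scale, Cxcl5 ranged from -0.91 to -0.63 and Ccl2 from -0.77 to -0.47 over the Mic-628 libraries. For both, Mic-628 replicate 2 was the lowest. In that library Il6 stood at 0.30 and Nfkbia at 0.02. Mic-628 replicate 3 had the lowest values of Il6 (-0.61) and Tnfaip3 (-0.38), and Mic-628 replicate 4 the lowest of Cxcl1 (-0.97), Lif (-0.32) and Csf1 (-0.24). Among vehicle libraries the widest spreads were in the sparse Cxcl1 and Cxcl12 and in Ccl7, which ranged from -0.42 to 0.37.

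**Figure D3:**
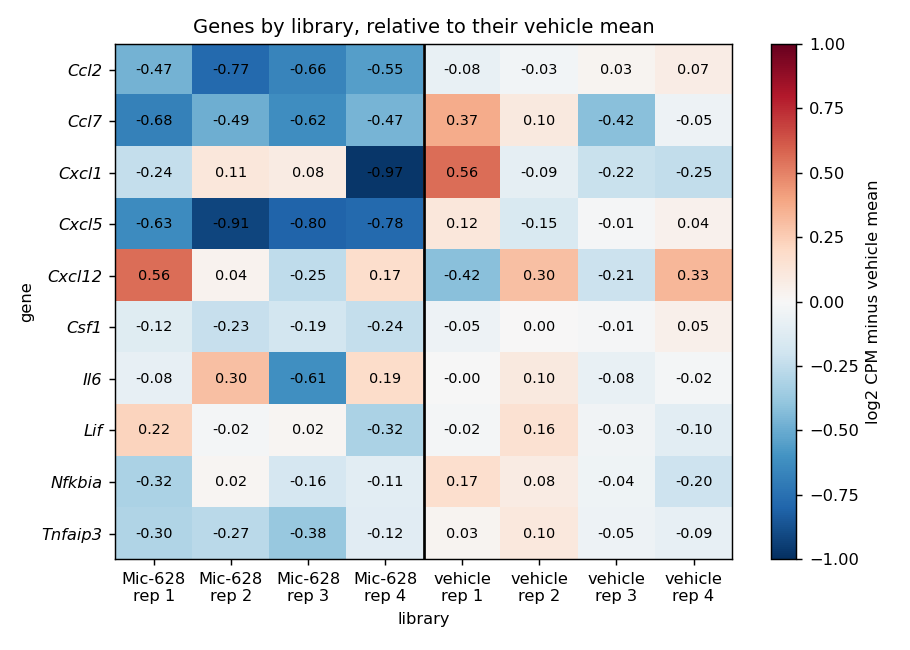
Log2 CPM of each gene (rows) in each library (columns, Mic-628 left of vehicle) minus the mean of its vehicle libraries, printed in each cell and coloured from blue (lower) to red (higher). Ccl2, Ccl7 and Cxcl5 are below -0.4 in all 4 Mic-628 libraries, but Ccl7 is also at -0.42 in vehicle replicate 3. Il6, Lif, Cxcl1, Cxcl12 and Nfkbia are mixed in sign over the Mic-628 libraries.

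On the FPKM scale, which is per exon length, the order of the Mic-628 means was Csf1 (78.2), Nfkbia (6.0), Ccl2 (5.63), Ccl7 (2.39), Tnfaip3 (2.15), Il6 (2.09), Lif (1.51), Cxcl5 (0.562), Cxcl1 (0.335) and Cxcl12 (0.222). With Mic-628 the libraries of Nfkbia and Ccl2 overlapped, those of Ccl7, Tnfaip3, Il6 and Lif overlapped from neighbour to neighbour, and so did those of Cxcl1 and Cxcl12. The order of the vehicle means was Csf1 (89.5), Ccl2 (8.61), Nfkbia (6.63), Ccl7 (3.56), Tnfaip3 (2.58), Il6 (2.10), Lif (1.53), Cxcl5 (0.981), Cxcl1 (0.404) and Cxcl12 (0.205). Of these neighbours Ccl7 and Tnfaip3 alone overlapped in vehicle libraries. Ccl2 thus stood below Nfkbia with Mic-628, within their spread, and above it with vehicle, without overlap.

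The rows whose profile over the 8 libraries was most like that of Ccl2 were Cp, Ccdc85a and Adamts4. Likeness was the mean absolute difference of log2 CPM relative to vehicle, over 11391 tested rows with a mean of at least 0.5 FPKM and a named gene, predicted and clone names left out. Cp, which encodes the copper-carrying ferroxidase ceruloplasmin, differed from Ccl2 by 0.092, Ccdc85a by 0.11, and Adamts4, a proteoglycan-cleaving protease gene, by 0.11. Cp had 9.11, 8.62, 8.34 and 8.12 FPKM with Mic-628, against 12.7, 13.0, 11.9 and 12.5 FPKM with vehicle. On the same measure Cxcl5 differed from Ccl2 by 0.13, Ccl7 by 0.22 and Csf1 by 0.22.

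The 3′ untranslated regions of all 10 transcripts were read from GENCODE M21 (GRCm38), matched by transcript ID without its version. Per kilobase, 9 of the 10 held more ATTTA pentamers than the median of 1.35 over 11102 tested transcripts, and 4 held more than the 90th percentile of 4.18. Il6 had the highest density (14.1 per kilobase), followed by Cxcl1 (11.8), Ccl7 (4.60), Cxcl5 (4.50), Nfkbia (3.91), Ccl2 (3.64), Tnfaip3 (2.75), Lif (2.20) and Csf1 (1.90). Cxcl12 (1.08) was the exception. Of the 4 densest transcripts, Ccl7 and Cxcl5 were called lower, Il6 was not called and Cxcl1 was not tested. A relation between pentamer density and the changes was not tested. The longer element TTATTTATT was present in Cxcl1, Lif, Nfkbia and Tnfaip3, and in 7.76% of the tested transcripts. The 30 bases with the most pentamers are shown for the densest CXC and cytokine transcripts and for Ccl2, with the pentamers in capitals.
Cxcl1: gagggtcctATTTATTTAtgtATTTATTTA
Il6: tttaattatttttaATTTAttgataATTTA
Ccl2: tgatgccttaattaatattaaacttATTTA
The Cxcl1 stretch (bases 79 to 108 of the region) holds 4 overlapping or adjacent pentamers, the Il6 stretch (129 to 158) holds 2 and the Ccl2 stretch (15 to 44) holds the 1 that its region has.

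The rest of the pathway was read from lists chosen with earlier results known. The counts called in each list stand beside 2.25% of all tested rows called lower and 2.13% called higher. Of 5 NF-kB subunit genes and 19 genes for IKK subunits, kinases and adaptors, all 24 were tested and none was called, with log2 fold changes from -0.20 to 0.17 (smallest edgeR adjusted p = 0.119; 2 at an unadjusted p under 0.05). Rela, which encodes the subunit p65, averaged 34.5 ± 1.54 FPKM with Mic-628 and 35.6 ± 0.957 FPKM with vehicle (SD, n = 4 each). Nfkb2, the precursor gene of p52, averaged 35.3 ± 1.27 FPKM with Mic-628 and 36.8 ± 0.717 FPKM with vehicle. The adaptor gene Tab2 and the kinase genes Irak1 and Chuk were the most abundant of the second list, at 38.9, 27.3 and 25.7 FPKM with Mic-628 and 37.4, 27.2 and 24.7 FPKM with vehicle.

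Among the 4 other IkB family genes tested, Bcl3, an atypical nuclear member, fell (log2 fold change -0.22; edgeR adjusted p = 0.0461) and 3 were not called. The Bcl3 call was lost with the block (0.0631), with scaling by library size only (0.0540), and in DESeq2 without the block (0.112). It was also lost without Mic-628 replicate 2, 3 or 4 or vehicle replicate 1, 2 or 3 (edgeR adjusted p 0.117, 0.186, 0.103, 0.0704, 0.133 and 0.109). A further list held inhibitors of the pathway together with ubiquitin ligases that act in it in either direction. Of its 11 other tested genes none fell, only Rbck1 rose and 10 were not called. Rbck1 encodes a subunit of the linear ubiquitin ligase complex, which is known to promote IKK activation (log2 fold change 0.15; edgeR adjusted p = 0.0401). It was not called without Mic-628 replicate 2, 3 or 4 or vehicle replicate 1 or 2 (0.0615, 0.170, 0.119, 0.0667 and 0.172).

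Of 14 tested receptor genes 3 fell, none rose and 11 were not called. Osmr, the oncostatin M receptor gene, had 32.2, 31.3, 30.1 and 29.4 FPKM with Mic-628, against 34.4, 36.3, 35.6 and 35.5 FPKM with vehicle, without overlap (log2 fold change -0.20, SE 0.034; edgeR adjusted p = 0.000403). The others that fell encode the chains of the interleukin-1 receptor, Il1r1 (log2 fold change -0.28; edgeR adjusted p = 0.0247) and Il1rap (-0.17; 0.0299). Il1r1 was not called without Mic-628 replicate 3 or 4 or vehicle replicate 1 or 2 (0.0908, 0.0888, 0.0708 and 0.114). The Il1rap call was lost under the block (0.0560) and in DESeq2 without the block (0.0798). It was also lost without Mic-628 replicate 1, 2 or 4 or vehicle replicate 2 (edgeR adjusted p 0.0747, 0.0832, 0.109 and 0.125). The gp130 gene Il6st, shared by interleukin-6 and LIF, averaged 42.8 ± 1.31 FPKM with Mic-628 and 42.4 ± 1.79 FPKM with vehicle (SD, n = 4 each). Receptors for the chemokines themselves were scarce. Cxcr1, Cxcr2 and Cxcr4 had no count in any library, and Ccr2 summed to 3 counts in each group. Ccr1 summed to 31 counts with Mic-628, 23 of them in replicate 1, and to 10.5 counts with vehicle. It was not tested. The CXCL12 scavenger gene Ackr3 was well expressed, at 17.7 FPKM with Mic-628 and 17.8 FPKM with vehicle.

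Among other chemokines 6 of 22 were tested, with a median log2 fold change of -0.19, as for the 9 tested genes above. Of these 6 only Ccl9, which encodes a ligand of CCR1, was called lower. It averaged 23.8 ± 1.15 FPKM with Mic-628 and 27.0 ± 1.77 FPKM with vehicle (SD, n = 4 each; log2 fold change -0.18; edgeR adjusted p = 0.0134). Its call was lost without Mic-628 replicate 2, without vehicle replicate 2 and without batch 2 (edgeR adjusted p 0.0690, 0.0631 and 0.224). Among other cytokines 10 of 21 were tested and 1 fell, the abundant Mif, which encodes macrophage migration inhibitory factor. Mif averaged 653.8 ± 28.2 FPKM with Mic-628 and 763.3 ± 23.0 FPKM with vehicle (log2 fold change -0.22, SE 0.034; edgeR adjusted p = 0.000138). Kitl, Clcf1 and Tnfsf12 were the most abundant that were not called, at 46.8, 18.1 and 8.51 FPKM with Mic-628 and 46.2, 17.7 and 9.36 FPKM with vehicle.

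Other known NF-kB targets went both ways, with 1 of 16 tested genes lower and 3 higher. Ptx3, which encodes the soluble pattern recognition protein pentraxin 3, had 55.7, 50.9, 53.6 and 55.0 FPKM with Mic-628, against 63.1, 62.4, 65.7 and 59.8 FPKM with vehicle (log2 fold change -0.22; edgeR adjusted p = 0.000374). Gadd45b, a stress-induced gene, rose to 57.3 ± 3.59 FPKM with Mic-628, against 47.4 ± 1.71 FPKM with vehicle (SD, n = 4 each; log2 fold change 0.27; edgeR adjusted p = 0.000138). The acute-phase gene Saa3 (0.56; 0.0277) and the anti-apoptotic gene Bcl2l1 (0.15; 0.0152) also rose. Saa3 was not called without Mic-628 replicate 2 or 3 or vehicle replicate 1, 2 or 3 (edgeR adjusted p 0.0805, 0.121, 0.0721, 0.0599 and 0.0666), nor Bcl2l1 without Mic-628 replicate 3 or vehicle replicate 2 or 3 (0.0704, 0.0813 and 0.0599). Ptgs2, the gene of inducible cyclooxygenase, was not called at 86.5 ± 4.15 FPKM with Mic-628 and 82.3 ± 2.59 FPKM with vehicle. The last list held 16 genes of JAK-STAT signalling and cytokine feedback, with mRNA-decay genes and a MAP kinase phosphatase gene among them, and 1 was called. That phosphatase gene, Dusp1, rose to 11.8 ± 0.761 FPKM with Mic-628, against 8.89 ± 0.725 FPKM with vehicle (log2 fold change 0.41; edgeR adjusted p = 9.33e-05). Zfp36l2, Jak1 and Stat3 were not called. Over these 9 lists, leaving out the 10 genes, 101 of 143 genes were tested, 7 were lower and 5 higher, and the median log2 fold change was -0.01. That was 6.93% lower and 4.95% higher, against 2.25% and 2.13% of all tested rows. As the lists were chosen with earlier results known, these shares are a description.

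**Figure D4:**
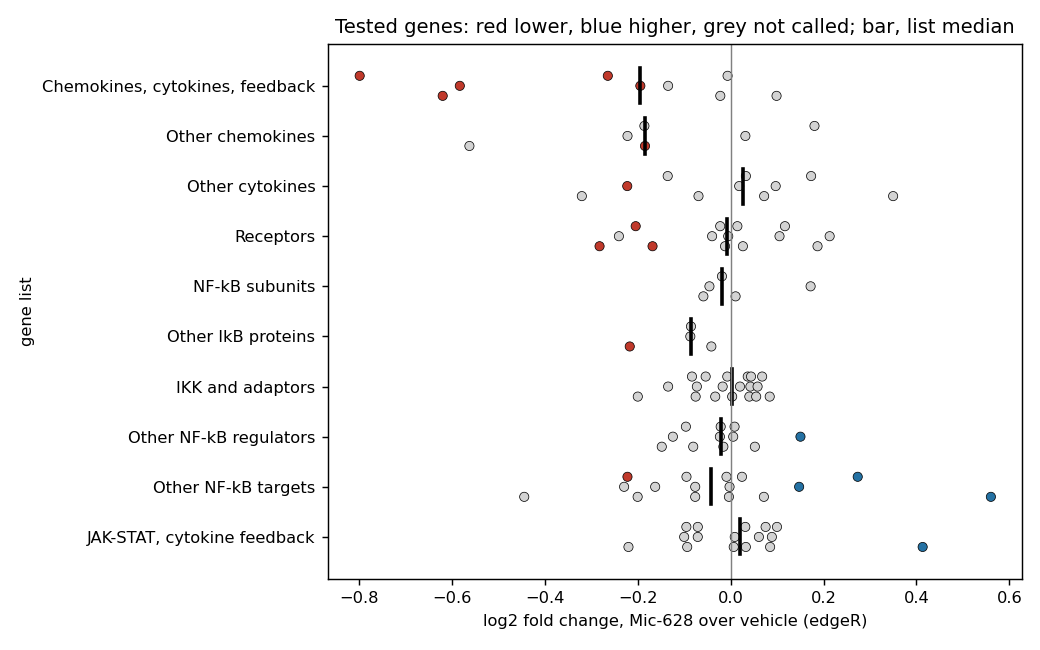
Log2 fold change, Mic-628 over vehicle (x axis), of tested genes by list (y axis), with the 9 tested chemokine, cytokine and feedback genes on top; red, lower; blue, higher; grey, not called; black bar, list median. Ccl2, Ccl7 and Cxcl5 lie furthest to the left. A grey gene among the other chemokines lies close to Ccl7, at -0.56 (SE 0.30; edgeR adjusted p = 0.358). The NF-kB subunits and the IKK and adaptor genes are all grey and lie between -0.20 and 0.17.

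The libraries were alike in depth, with 18.1 M to 23.2 M counts (M, mega) on listed transcripts. The fibroblast label was checked with 10 markers, all of them tested. Their summed level was 4432 to 4548 FPKM with Mic-628 and 5081 to 5259 FPKM with vehicle. Vim and Fn1 made up most of it, at 1831 and 1320 FPKM with Mic-628 and 2127 and 1599 FPKM with vehicle. Of the 10, 4 fell: Vim, Fn1, Col1a2 and Col3a1 (log2 fold changes -0.22, -0.28, -0.14 and -0.57). The other 6 were not called. The most abundant of them, S100a4, Thy1 and Col1a1, had log2 fold changes of -0.10, 0.003 and -0.004. The call of Col1a2 was lost when batch 2 was left out (edgeR adjusted p = 0.106) and when batch 3 was (0.0957). The 11 macrophage and blood markers summed to 10.2 to 11.1 FPKM with Mic-628 and 9.14 to 10.2 FPKM with vehicle. Of these, 3 were tested and none was called, and they held most of the sum. Cd68, Csf1r and Cd14 averaged 7.42, 1.81 and 1.16 FPKM with Mic-628, against 6.59, 1.56 and 1.08 FPKM with vehicle. For Cd68 the groups did not overlap, with Mic-628 higher (edgeR adjusted p = 0.260). The 8 others were not tested, and 4 of them had no count in any library. Summed endothelial markers reached at most 0.173 FPKM with Mic-628 and 0.271 FPKM with vehicle, and epithelial ones 0.748 and 0.524 FPKM. The part of the lower fibroblast markers in the falls of the chemokine genes was not tested.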

How the data were processed

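Per the labels' protocols, poly(A) RNA of NIH3T3 cells was extracted with Trizol and sequenced as stranded paired-end libraries. The tools named in the submitters' processing notes are STAR 2.7.10a, HOMER 4.11 and bcl2fastq, and the build is GRCm39 (mm39); their roles are not given in the sources used here. The authors deposited exon counts per canonical transcript, not whole but in steps of 0.5 and treated here as estimated counts, and FPKM values for the same rows. FPKM recomputed from counts, exon length and header totals differed by at most 5e-04. Whether counting used strand is not given in the sources used here. All columns were matched by library name, with 0 left over.

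After rounding, counts were tested with edgeR 4.0.16 under R 4.3.3 (filterByExpr at a minimum count of 10, TMM, quasi-likelihood F test without a block, Benjamini-Hochberg over 17128 rows). TMM factors were 0.9946 to 1.007. The SE is the log2 fold change divided by the square root of F. Ratios used log2 CPM with a prior count of 0.5 and exact permutation.

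The labels' batch numbers pair the libraries, and a block was an alternative. The correlation of deviations between same-numbered libraries was -0.0949 to 0.0744 over 10292 rows, within the range of other pairs (-0.117 to 0.141). Replicates differed by more than counting noise (chi-square per row 1.57 to 4.74). Also run were DESeq2 1.42.0 on all rows with a count, once with the block and once without, DESeq2 size factors or library size only in edgeR, no filter, CPM of at least 1 in 4 libraries, limma-trend (limma 3.58.1) on log-transformed FPKM (pseudocount 1 or 0.1, keeping a mean of 0.5 FPKM or more; pseudocount 1 also without that filter), and leaving out each library or batch.

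The genes and lists were chosen with earlier results of these data known. All 10 genes are described. From each list the called genes (up to 4, by p) and the 3 most abundant not called could be named, and receptors and genes of the chemokine clusters could be given with their levels. A marker gene that enters the counts and sums is not reported here by name.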

Additional observations from a re-analysis of the deposited data

How the results depend on the processing

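Ccl2 and Csf1 were called by every count test. Of the 10 genes, 5 were called, and 4 with the batch number as a replicate block in edgeR, which ended the calls of Tnfaip3, Bcl3 and Il1rap. In DESeq2 2 were called, both with and without the block; without it Ccl7 and Cxcl5 were left without an adjusted p, and with it Cxcl5 was. Limma-trend called 3 with either pseudocount and 1 without a filter. Leaving out a library or batch gave 2 to 5. In DESeq2 with the block, Ccl9, Bcl3, Il1r1, Il1rap, Rbck1, Saa3 and Bcl2l1 lost their calls (adjusted p 0.155 to 0.602). Their calls were also lost in every limma-trend fit and without batch 2 (edgeR adjusted p 0.138 to 0.264). In DESeq2 without the block, Bcl3 and Il1rap were not called either (adjusted p 0.112 and 0.0798), and Saa3 had no adjusted p. Called rows over the whole table, 749, numbered 243 in DESeq2 with the block, 277 and 273 by limma-trend with a pseudocount of 1 and 0.1, 170 without a filter, and 292 to 802 with a library or batch left out (426 without vehicle replicate 2, 331 without batch 2, 292 without batch 3). Leaving out libraries, the ratio difference ranged from -0.20 to 0.10 for Ccl2 to Ccl7, 0.63 to 0.85 for Cxcl12 to Ccl2, and -0.17 to 0.21 for Lif to Il6. With the batch pairing, the Cxcl12 to Ccl2 difference was 0.74; flipping signs of the 4 pairs gave an exact p of 0.125, the lowest value possible. The log2 fold changes of Cxcl12 (-0.17 to 0.24), Il6 (-0.14 to 0.15) and Lif (-0.11 to 0.07) changed sign when libraries or batches were left out: Cxcl12 was -0.046 without Mic-628 replicate 1, Il6 was 0.014 and 0.13 when batches 1 and 3 were left out, and Lif was 0.039 and 0.033 when batches 2 and 4 were. Leaving out Mic-628 replicate 1 gave -0.10 for Lif, and leaving out Mic-628 replicate 4 gave 0.070. The causes were not tested. Depth limits Cxcl1, with at most 12 counts per library, and Cxcl12, with at most 18.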
